A study of Homo sapiens with 8 samples.

Results

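MEG-01 is a human megakaryoblastic cell line, established from the blast crisis of a chronic myeloid leukaemia and carrying the BCR-ABL1 fusion. Transcript levels are given for MEG-01 cells that received no treatment: 2 RNA-seq libraries of the 8 in the series, chosen by their label as untreated and by nothing measured in them. The series holds 4 groups of 2 libraries (untreated, phorbol ester (PMA), PMA with Ceefourin 2, an inhibitor of the exporter ABCC4, and Ceefourin 2 alone), and the treated groups are not used. The untreated cells were grown in RPMI medium with fetal bovine serum and glutamine, and no vehicle is named for them. All values therefore come from 1 transformed line, and no labels say whether the 2 libraries are separate cultures, so their spread may be technical.

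Levels are in TPM (RSEM's length-corrected transcript abundance), which divide the reads of a gene by its length and can be compared between genes. Where 2 values are given for a gene, the first is untreated library 1 and the second untreated library 2, and every mean ± SD is over n = 2. The libraries held 44430292 and 57650835 expected read counts. A gene with a mean of at least 1 TPM is called expressed here. By that measure 12897 of 60754 gene identifiers were expressed, and 10950 of the 20004 protein-coding ones (54.7%). That 54.7% is the share to set beside each count of expressed list members below. No reads at all were assigned to 36376 identifiers (59.9%) in either library. A count of 0 in both allows up to 3 counts over the pair, or 0.0294 CPM (counts scaled to library size).

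Megakaryocytes are the bone marrow cells that shed platelets. They arise from a progenitor shared with red cells, under GATA1, TAL1 and RUNX1, and mature by repeated DNA replication without division, by filling alpha and dense granules, and by extending proplatelets built on a platelet-specific tubulin. A megakaryoblast is an early stage of that path, and it is usually recognised by integrin alphaIIb (ITGA2B) and integrin beta3 (ITGB3), with the glycoprotein Ib-IX-V complex, platelet factor 4 and von Willebrand factor appearing as the cell matures.

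Set against those markers, the label held in part. ITGA2B was at 296 and 307 TPM in libraries 1 and 2 (301 ± 8.12 TPM), which placed it at rank 408 among protein-coding genes. ITGB3, its partner chain, was at 16.6 and 14.1 TPM (15.3 ± 1.74 TPM), so the ITGA2B level was 17.8 and 21.7 times that of ITGB3. Of the markers of maturation, GP9 was at 0.45 and 0.38 TPM, GP5 at 0.03 and 0.02 TPM and TUBB1 at 0.34 and 1.04 TPM. PF4 had no counts, and VWF had 1 count in library 1 and none in library 2. GP1BA, of the same complex as GP9 and GP5, was at 2.79 and 1.96 TPM. Not all platelet receptors were low, since the collagen receptor GP6 had a mean of 50.7 TPM and MPIG6B one of 119 TPM.

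A small number of genes held most of the transcripts. The highest 253 genes held 50% of the TPM in library 1 and the highest 192 in library 2. The 10 highest genes held 7.72% and 9.23% of TPM (8.48 ± 1.07%), the 100 highest held 35.6% and 39.1% (37.3 ± 2.51%), and the 1000 highest held 69.1% and 71.8% (70.5 ± 1.88%). Expected counts, which are not divided by gene length, gave the 100 highest genes 22.5%. At least 1000 TPM was reached by 160 genes, at least 100 TPM by 1485, and at least 10 TPM by 7818. The median expressed protein-coding gene was at 18.8 TPM.

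**Figure D1:**
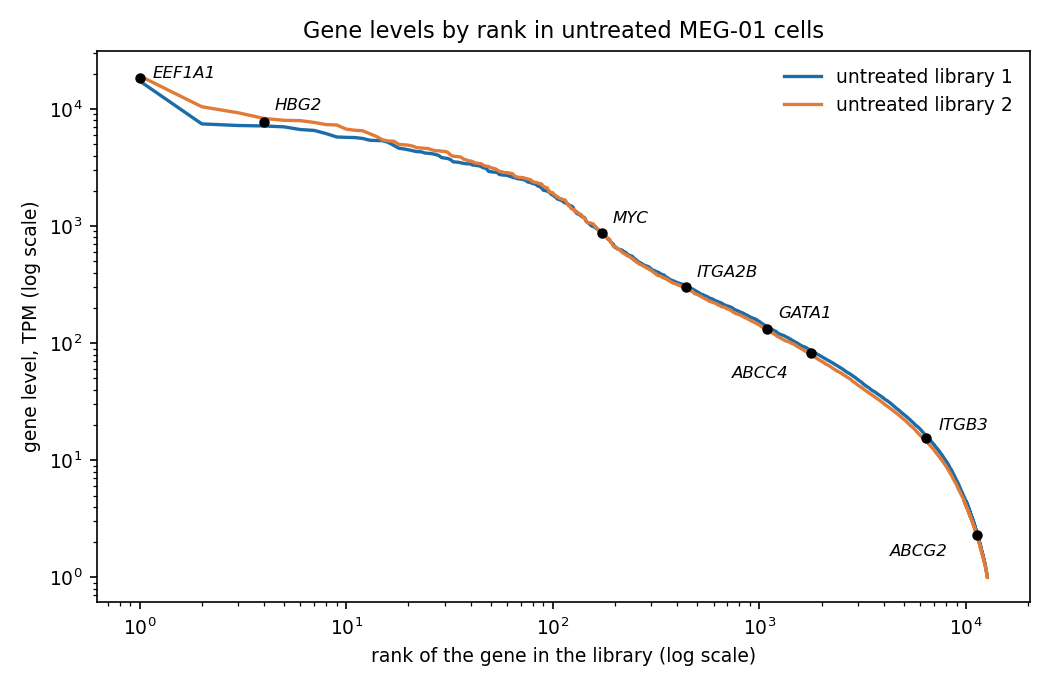
TPM of each gene (vertical, log scale) against its rank within the library (horizontal, log scale), for untreated library 1 (blue) and library 2 (orange), with genes under 1 TPM left out. Black points are means of the 2 libraries for 8 named genes, from EEF1A1 at rank 1 to ABCG2 at 2.29 TPM, and the 2 curves nearly coincide below the highest genes.

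Protein synthesis took the largest part of the top. EEF1A1, the elongation factor that brings aminoacyl-tRNA to the ribosome, was the highest gene of all at 17376 and 19209 TPM (18292 ± 1296 TPM). The 84 ribosomal protein genes together held 21.99% and 23.5% of TPM, and 60 of the 100 highest genes were among them. RPL13A was the highest at 6566 and 7305 TPM, and RPS18, at 5771 and 6587 TPM, overlapped it. The median of the class was 2561 TPM, and 75 of the 84 reached 1000 TPM. Initiation and elongation factors were high throughout: 32 of 32 listed were expressed and 30 reached 100 TPM.

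Other genes at the top were structural, chaperone and housekeeping genes. Beta-actin (ACTB) was at 5610.0 and 4914 TPM, the nucleolar protein NPM1 at 5377 and 4944 TPM, and the ribosome-bound scaffold RACK1 at 4396 and 4675 TPM. FTL, the ferritin light chain that stores iron, was at 7463 and 7679.6 TPM and FTH1, the heavy chain, at 3284 and 3265 TPM. The light chain was above the heavy chain in both libraries. The cyclophilin PPIA (4338 ± 27.4 TPM), the RNA-binding protein YBX1 (3948 ± 99.5 TPM) and the glycolytic enzyme GAPDH (3570.4 ± 60.4 TPM) followed. Of the other top genes, ACTG1, EEF1G, TMSB10, TPT1, HSP90AB1, HSPA8, PTMA and HNRNPA1 had means between 2282 and 3493 TPM. EEF1G shares 89.4% of its 100-base windows, each as long as a read of 100 cycles, with other annotated transcripts, so its own level is uncertain.

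Transcripts made in the mitochondrion differed between the libraries. The 13 protein-coding genes of the mitochondrial genome held 4.16% of TPM in library 1 and 6.15% in library 2, and 12 of the 13 were higher in library 2. MT-CO3, a subunit of cytochrome oxidase, was at 7042 and 10458 TPM, and MT-CO2 was at 6678 and 9289 TPM. The exception was MT-ND3, a complex I subunit, at 3060.1 and 2360.1 TPM. Their median ratio of library 2 to library 1 was 1.6, beside 1.06 for ribosomal protein genes. TPM sums to the same total in each library, so a value depends on what else was sequenced. The median expressed gene had a library 2 value 0.918 times that of library 1, and 0.938 times after the mitochondrial genes were removed and the rest rescaled.

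Among long noncoding RNAs, 886 of 16840 were expressed. The highest were small nucleolar RNA host genes: SNHG5 was at 1038 and 1053 TPM and SNHG29 at 989 and 1100.0 TPM, overlapping between libraries. DANCR (598 ± 14.4 TPM), PVT1 (373 ± 48.3 TPM) and GAS5 (333 ± 19.5 TPM) came next, and 19 reached 100 TPM. Of all expressed genes, 203 had under 10 counts in each library, 3 of them protein-coding.

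The platelet surface genes split by complex. Of the 24 listed, 15 were expressed, beside 54.7% of all protein-coding genes, and 5 reached 100 TPM. The list's median was 14.3 TPM, beside 2.56 TPM for all protein-coding genes. The integrin chains were present: ITGA2B and ITGB3 form the fibrinogen receptor, and ITGAV, which pairs with ITGB3 in the vitronectin receptor, was at 4.51 and 4.47 TPM. Their levels followed the order ITGA2B, ITGB3, ITGAV without overlap between neighbours.

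The von Willebrand factor receptor, the glycoprotein Ib-IX-V complex, was low. Its ligand-binding chain GP1BA was at 2.79 and 1.96 TPM, and 1 of the 4 chains was expressed. GP1BB was at 0.28 and 0.20 TPM, GP9 at 0.45 and 0.38 TPM, and GP5 at 0.03 and 0.02 TPM from 3 counts in each library. The collagen receptor was higher: GP6, which binds collagen, was at 51.4 and 50.1 TPM (50.7 ± 0.89 TPM) and its signalling chain FCER1G at 45.7 and 56.8 TPM. The libraries of these 2 chains overlapped. ITGA2, the alpha chain of the other collagen receptor, was at 0.67 and 0.42 TPM, while its beta chain ITGB1, which pairs with many alpha chains, was at 162 and 146 TPM. CLEC1B, the podoplanin receptor, had 1 count in each library, and CD36 was at 12.45 and 14.01 TPM.

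Further surface genes were high, with a few at 0. MPIG6B, an inhibitory receptor restricted to the megakaryocyte lineage, was at 113 and 126 TPM (119 ± 9.52 TPM). Among the tetraspanins, the granule protein CD63 was at 249 and 267 TPM and CD151 at 115 and 114 TPM, but CD9, abundant on platelets, was at 0.15 and 0.09 TPM. The adhesion molecules PECAM1 (73.0 ± 2.84 TPM), ESAM (50.6 ± 1.29 TPM), F11R (31.3 ± 3.17 TPM) and JAM3 (24.7 ± 3.05 TPM) were all expressed. P-selectin (SELP) was at 0.21 and 0.25 TPM, and TREML1, a platelet granule membrane receptor, had no counts.

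**Figure D2:**
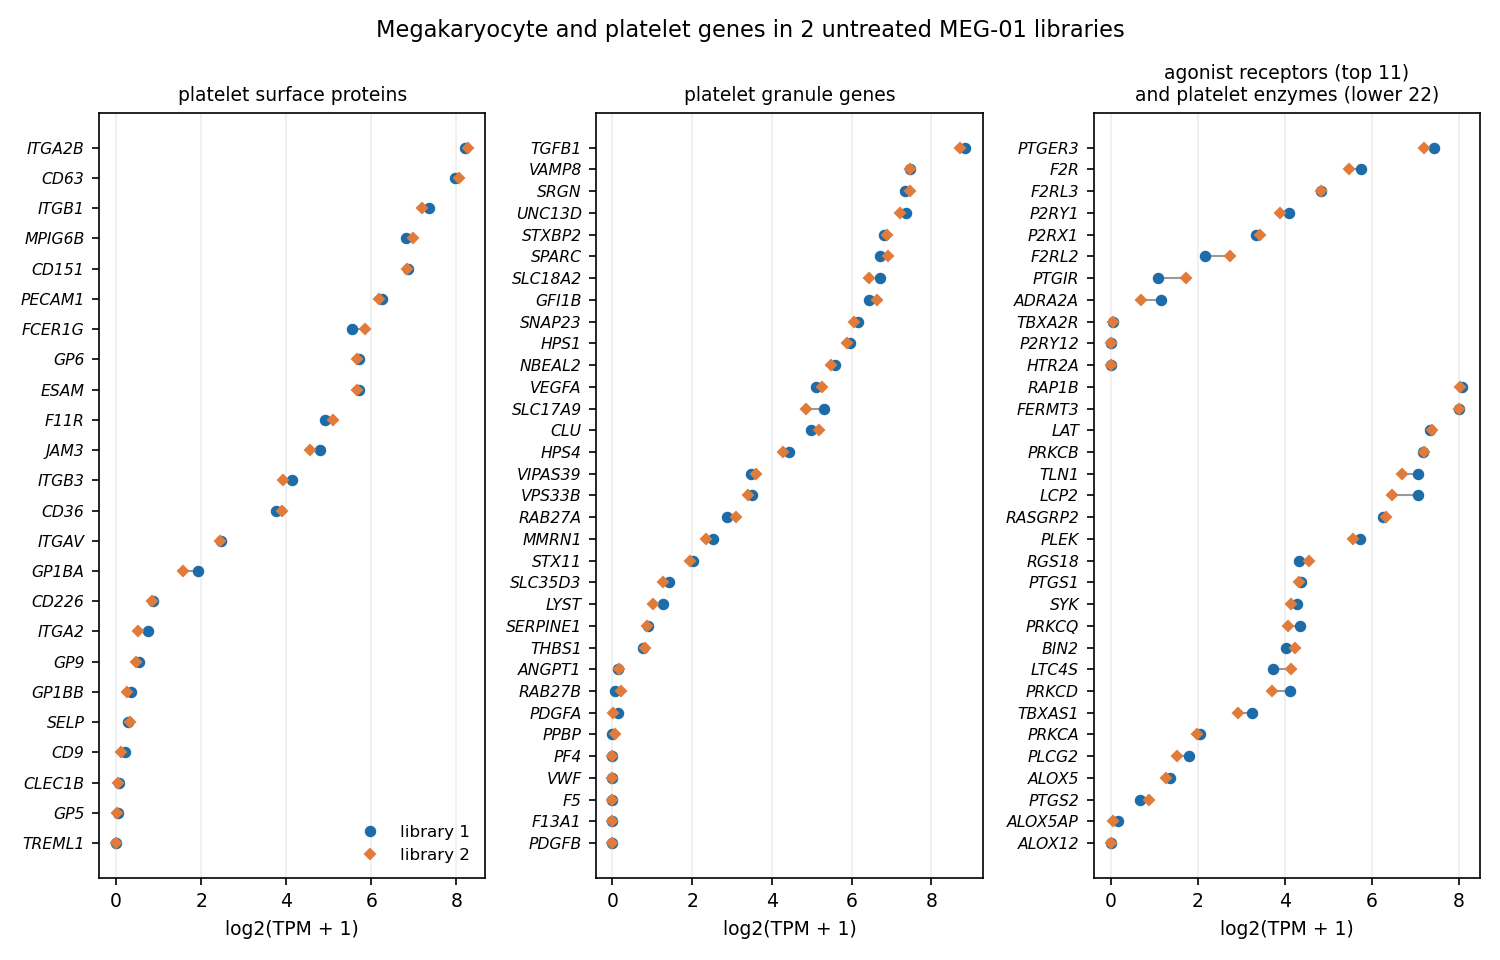
Levels of platelet surface (left), platelet granule (middle) and platelet receptor and enzyme genes (right) as log2(TPM + 1), with a blue circle for untreated library 1 and an orange diamond for library 2. Within each list genes are ordered by mean; the surface list runs from ITGA2B at 301 TPM to TREML1 at 0, and in most genes the libraries lie close together.

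Granule genes divided between cargo and machinery. Of the 16 alpha granule cargo genes, 6 were expressed, with a median of 0.425 TPM. TGFB1, a growth factor that many blood cells make, was at 456 and 416 TPM, the proteoglycan core SRGN at 162 and 176 TPM, and the matrix protein SPARC at 104 and 118 TPM. Other cargo genes were lower, led by VEGFA at 33.4 and 37.0 TPM and CLU at 30.3 and 35.1 TPM. The chemokine PF4 had no counts, PPBP had 0 and 2, and VWF and F5 had 1 count in all each. Coagulation factor F13A1 and PDGFB had no counts, THBS1 was at 0.71 and 0.76 TPM, and the factor V binding protein MMRN1 at 4.73 and 4.10 TPM.

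Of the 11 genes for granule formation and secretion, 10 were expressed, with a median of 45.2 TPM. The SNARE VAMP8 was at 175 and 176 TPM, the priming factor UNC13D at 164 and 148 TPM, and its partner STXBP2 at 111 and 118 TPM. NBEAL2, the gene mutated in gray platelet syndrome, was at 46.7 and 43.8 TPM, and RAB27B, a dense granule GTPase, was at 0.05 and 0.16 TPM, below its paralogue RAB27A at 6.34 and 7.63 TPM. All 6 dense granule genes were expressed, but SLC35D3, at 1.68 and 1.40 TPM, and LYST, at 1.41 and 1.01 TPM, were close to the threshold of 1 TPM. SLC18A2, the vesicular monoamine transporter that loads serotonin, was at 103 and 85.7 TPM, and SLC17A9, which loads ATP, was at 38.7 and 27.8 TPM.

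Receptors for platelet agonists were present in some classes. The highest was PTGER3, a prostaglandin E2 receptor, at 173 and 145 TPM (159 ± 19.2 TPM), which was also the highest of all 213 G protein-coupled receptors examined. The thrombin receptors F2R, at 52.7 and 43.8 TPM, and F2RL3, at 27.6 and 27.4 TPM, did not overlap. Of the ADP and ATP receptors, P2RY1 was at 16.2 and 13.8 TPM and the channel P2RX1 at 9.08 and 9.71 TPM, while P2RY12, the target of clopidogrel, had no counts. TBXA2R, the thromboxane receptor, had 2 and 4 counts, and the serotonin receptor HTR2A had none.

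Of 7 eicosanoid enzymes, 4 were expressed. PTGS1, the platelet cyclooxygenase, was at 19.7 and 19.0 TPM and TBXAS1, thromboxane synthase, at 8.40 and 6.61 TPM. ALOX12, the platelet lipoxygenase, had no counts. The 15 signalling proteins were all expressed, led by the GTPase RAP1B at 269.7 and 263 TPM and the integrin activator FERMT3 at 255 and 257 TPM, whose libraries did not overlap. The adaptor LAT was at 159.9 and 165 TPM, and PLEK, the major protein kinase C substrate of platelets, was at 52.1 and 46.4 TPM.

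Of 24 cytoskeletal genes, 21 were expressed and 13 reached 100 TPM. TUBB1, the beta tubulin of the platelet marginal band, was at 0.34 and 1.04 TPM, while TUBB was at 1566 and 1407 TPM, and TUBB, TUBB2A, TUBB4B and TUBB6 together held 1963 and 1758 TPM. Of alpha tubulins, TUBA1B was at 2004 and 1859 TPM and TUBA4A, also prominent in platelets, at 132 and 102 TPM. Myosin heavy chain MYH9 was at 91.8 and 64.8 TPM, filamin FLNA at 202 and 184 TPM, and the light chain MYL9 had no counts.

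Red cell genes were abundant in a line named for megakaryoblasts. Of the 49 erythroid genes listed, 43 were expressed and 17 reached 100 TPM. Their median was 39.4 TPM, above that of the platelet surface list. The lists differ in make-up, the red cell list holding 9 haem synthesis enzymes, so their medians do not rank the lineages. In a bulk library, more cells of a kind and more RNA per cell cannot be told apart, so these levels do not show whether all cells carried both programmes.

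Globins made up 1.66% and 1.84% of TPM. The largest part of it was gamma globin, the beta-like chain of fetal haemoglobin. HBG2 was at 7167 and 8309 TPM and AC104389.5, an entry that overlaps both gamma genes, at 7232 and 7957 TPM, while HBG1 was at 102 and 104 TPM. These 3 entries summed to 14501 and 16371 TPM. The adult chains were lower, HBB at 19.1 and 27.1 TPM and HBD at 38.97 and 39.77 TPM, or 58.1 and 66.9 TPM together. Embryonic epsilon globin HBE1 was at 45.9 and 138 TPM, a spread of 3.01-fold between libraries. Of the alpha cluster, HBA1 was at 1479 and 1329 TPM and HBA2 at 475 and 452 TPM, embryonic HBZ was at 0.80 and 0.44 TPM, and HBM had no counts.

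The split among the gamma entries depends on the annotation. AC104389.5 spans chr11:5248270-5254783 on the minus strand (hg38) and overlaps HBG1 (chr11:5248079-5249859) and HBG2 (chr11:5253190-5505605). Of its 100-base windows, 83.4% also occur in transcripts of HBG1, HBG2 or AC104389.4. The coding sequences of HBG1 and HBG2 are the same at 439 of 441 bases. The differences are C227T and C410G, counted from the first coding base and written from HBG1 to HBG2. The second is the one that gives the A-gamma and G-gamma chains their names. The last 72 coding bases of each gene, from the GENCODE 29 transcripts and with the differing base in capitals, show how little there is to tell them apart:
HBG1: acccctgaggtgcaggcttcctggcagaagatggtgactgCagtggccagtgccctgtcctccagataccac
HBG2: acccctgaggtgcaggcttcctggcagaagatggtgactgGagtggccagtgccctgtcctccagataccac
They lie at chr11:5248362-5248433 and chr11:5253280-5253351, minus strand. The gamma sum is therefore firmer than its parts, and the levels of HBG1, HBG2 and AC104389.5 singly are uncertain. The sum leaves out AC104389.4, which shares windows with each of them, so some gamma reads may lie outside it. HBA1 and HBA2 share 79.3% and 79.1% of their windows, and the same holds for them. HBE1 shares 65.6% of its windows with AC104389.4, which was named after values were seen.

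All 9 haem synthesis enzymes were expressed, led by UROD at 595 and 635 TPM. ALAS2, the erythroid form of the first enzyme, was at 12.7 and 13.4 TPM, below its housekeeping form ALAS1 at 26.6 and 29.2 TPM. Of 21 membrane genes 19 were expressed: glycophorin GYPC was at 424 and 417 TPM and RHAG, the Rh-associated ammonium channel, at 251 and 231 TPM. ANK1, the ankyrin of red cells, was at 149.96 and 112.53 TPM. The anion exchanger SLC4A1, which marks later erythroblasts, was at 1.90 and 1.93 TPM, and the alpha globin chaperone AHSP at 0.48 and 0.75 TPM. Carbonic anhydrase CA1 was at 268 and 317 TPM and CA2 at 126 and 131 TPM.

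Iron handling genes were also expressed. TFRC, the transferrin receptor, was at 278 and 215 TPM, and SLC25A37, the mitoferrin of erythroid cells, was at 203 and 205 TPM. The second transferrin receptor TFR2 was at 39.6 and 42.6 TPM and the exporter SLC40A1 at 28.6 and 31.6 TPM. Of the 13 iron genes, 12 were expressed, all at 10 TPM or more.

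Transcription factors of both lineages were expressed together. Of 47 megakaryocyte and erythroid factors, 42 were expressed and 38 reached 10 TPM, with a median of 35.8 TPM. GATA1, the zinc finger factor that both lineages need, was at 134 and 131 TPM (133 ± 2.66 TPM). GATA2, its earlier-acting relative, was at 163 and 100.5 TPM (132 ± 44.4 TPM). The library 2 value of GATA2 was below both GATA1 values and the library 1 value above them, so the 2 genes could not be ordered. The partner TAL1 was at 208 and 175 TPM, LYL1 at 188 and 171 TPM, LDB1 at 95.04 and 83.43 TPM, LMO2 at 63.1 and 56.5 TPM, and ZFPM1, the GATA1 cofactor, at 9.74 and 11.1 TPM.

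Further factors of megakaryocytes and red cells were also expressed, some of them shared by both lineages. NFE2, which drives late megakaryocyte genes, was at 163 and 169 TPM (166 ± 4.02 TPM). KLF1, the factor of red cell genes, was at 142 and 121 TPM (131 ± 15.4 TPM). FLI1, an ETS factor of megakaryocytes, was at 32.99 and 28.6 TPM and the related ERG at 41.4 and 40.2 TPM. GFI1B, a repressor needed in both, was at 85.6 and 99.0 TPM, RUNX1 at 44.1 and 42.9 TPM, and MYB, the progenitor factor, at 104 and 86.3 TPM. SPI1, the factor of myeloid cells, was at 60.3 and 63.3 TPM. MEIS1 had no counts and ETS1 was at 0.18 and 0.27 TPM, while HOXA9, often found with MEIS1, was at 69.6 and 51.9 TPM.

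Over a wider set of 347 transcription factors, 256 were expressed, 176 reached 10 TPM, 22 reached 100 TPM, and 26 had no counts. The 10 highest were led by the chromatin protein HMGB1 at 932 and 876 TPM. MYC, which drives growth and ribosome synthesis, was at 961 and 784 TPM (872 ± 125 TPM), rank 159 among protein-coding genes, and overlapped HMGB1. HMGA1 (744 ± 0.94 TPM), HMGB2 (444 ± 35.2 TPM), ATF4 (426 ± 120.1 TPM), MAZ (424 ± 35.6 TPM), JUND (239 ± 29.2 TPM), TAL1, HSF1 (188 ± 6.06 TPM) and LYL1 made up the rest. By family, the highest homeobox factor was HHEX at 76.6 and 67.7 TPM, and the highest nuclear receptor NR2F2 at 105 and 90.5 TPM, an orphan receptor known from veins and stroma.

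Lists of markers of other lineages each held expressed members, except the neutrophil list. Of 16 stem and progenitor markers, 10 were expressed, beside 54.7% of all protein-coding genes, so the count alone does not mark such cells. CD33, a sialic acid-binding receptor of myeloid cells, was at 259.7 and 231 TPM and the sialomucin SPN at 158 and 142 TPM. KIT, the stem cell factor receptor, was at 13.1 and 13.2 TPM and CD34 at 8.95 and 6.69 TPM, with no overlap. PROM1, THY1 and FLT3 had no counts.

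Some mast cell and basophil genes were high. HDC, which makes histamine, was at 261 and 202 TPM (231 ± 41.2 TPM), and FCER1A, the alpha chain of the IgE receptor, was at 87.1 and 79.6 TPM. The protease CPA3 was at 17.2 and 22.8 TPM. Other defining genes had means under 1 TPM: MS4A2, the beta chain of the IgE receptor, was at 0.28 and 0.31 TPM, TPSAB1, a tryptase, at 0.71 and 1.17 TPM, and the chymase CMA1 had no counts. TPSAB1 shares 50.3% of its windows with other tryptase genes. In all 7 of 12 were expressed, beside 54.7% of all protein-coding genes, so the count alone does not mark these cell types.

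Of 14 monocyte and macrophage markers, 3 were expressed: the lysosomal CD68 at 161 and 167 TPM, lysozyme LYZ at 35.2 and 35.0 TPM and the integrin ITGAM at 23.2 and 17.5 TPM. CD14 was at 0.19 and 0.19 TPM, and CD163, S100A8, S100A9 and MARCO had no counts. None of the 10 neutrophil granule genes was expressed. The highest means were those of CTSG, at 0.20 and 0.28 TPM, and LTF, at 0.13 and 0.35 TPM. Of 8 B cell markers 1 was expressed (CD79B at 1.98 and 1.81 TPM), and of 13 T and NK cell markers 2, CD4 at 58.5 and 60.4 TPM and NKG7 at 1.04 and 1.45 TPM, with CD3E and CD3G at 0 counts. CD4 is also made by monocytic cells.

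Of 10 endothelial markers 5 were expressed, beside 54.7% of all protein-coding genes. TIE1, a receptor kinase shared with blood progenitors, was at 58.6 and 63.2 TPM, and CDH5, the defining cadherin, was at 0 and 0.03 TPM. Among fibroblast and epithelial genes, EPCAM was at 31.7 and 32.6 TPM, KRT18 at 19.6 and 19.3 TPM and KRT8 at 8.52 and 13.0 TPM. CDH1 was at 0.09 and 0.09 TPM, COL1A2 had no counts, and 4 of 11 were expressed.

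**Figure D3:**
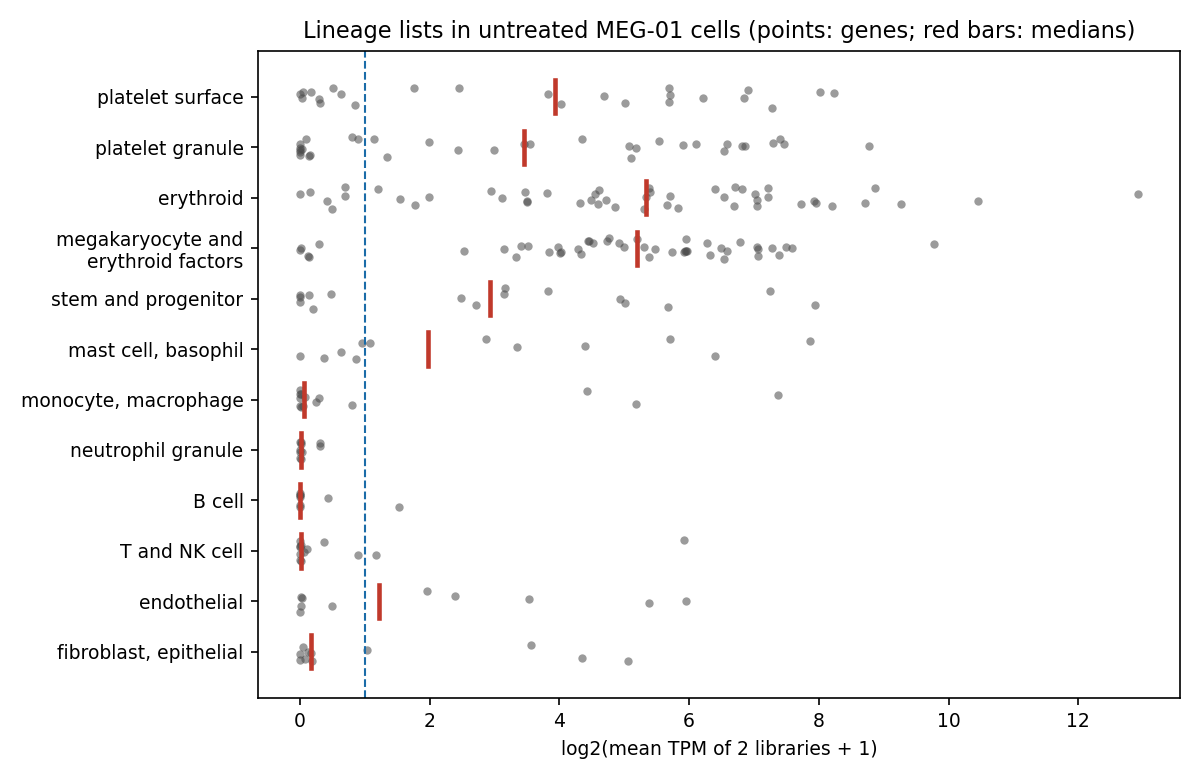
Mean level of each gene of 12 lineage lists as log2(mean TPM + 1) over the 2 untreated libraries; points are genes, red bars are list medians and the dashed line is 1 TPM. Medians lie at 39.4 TPM for erythroid genes and 35.8 TPM for the factors, and at 0 or near it for neutrophil, B cell, T cell and monocyte lists.

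ABC proteins use ATP to move molecules across membranes, and ABCC4 among them exports cyclic nucleotides, prostaglandins and purine drugs such as the products of mercaptopurine. The title of the series names this gene. ABCC4 (chr13:95019829-95301475, minus strand, hg38) was at 90.8 and 74.7 TPM (82.8 ± 11.4 TPM), from 16551 and 18679 counts. It ranked 1681 among protein-coding genes, above 84.6% of the 10950 expressed, and was 4.41 times the median of expressed protein-coding genes. No 100-base window of its transcripts occurs in another gene's. Ranked by CPM, without correction for length, it was at 409.

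Of 48 ABC genes, 23 were expressed and 11 had no counts. ABCC4 had rank 3 among them in each library. The 2 above it, ABCF1 at 117 and 104 TPM and ABCE1 at 112 and 102 TPM, work in translation and ribosome recycling and have no membrane domain, and their libraries overlapped each other but not ABCC4. ABCC4 was therefore the highest ABC membrane transporter in both libraries, and held 53.4% and 57.6% of the TPM of the 12 ABCC genes. TAP2, of the peptide loader for MHC class I, was next at 63.2 and 53.0 TPM and did not overlap it, while its partner TAP1 was at 11.4 and 9.66 TPM.

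The other drug exporters were lower. ABCC1 was at 38.0 and 23.4 TPM and ABCC5 at 31.7 and 23.8 TPM, overlapping, which put ABCC4 at 2.39 and 3.20 times ABCC1. ABCB1, P-glycoprotein, was at 7.07 and 8.51 TPM, and ABCG2, which also carries purine drugs, at 2.37 and 2.22 TPM. ABCC4 was 12.8 and 8.78 times ABCB1 and 38.3 and 33.7 times ABCG2. ABCC2 was at 0.16 and 0.20 TPM and ABCC3 at 0.10 and 0.06 TPM. The mitochondrial transporter ABCB8 was at 25.1 and 23.6 TPM and ABCB10 at 24.6 and 21.9 TPM, and the cholesterol exporter ABCA1 was at 0.01 and 0.01 TPM and ABCG1 at 0 and 0.05 TPM. For ABCF2 2 identifiers exist, and the higher was used.

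**Figure D4:**
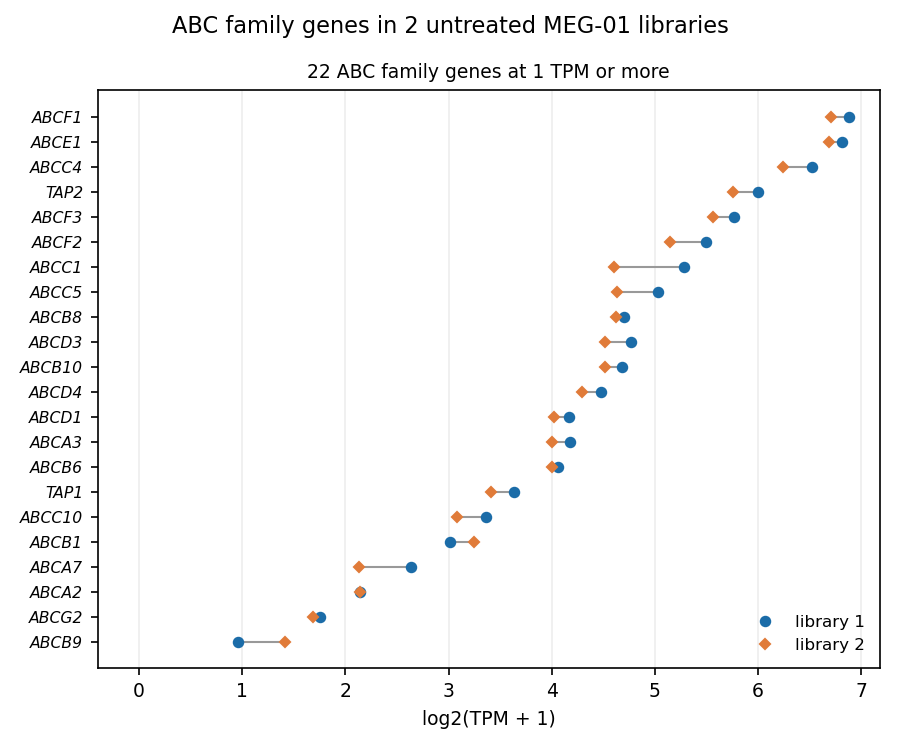
Levels of 22 of the 23 ABC family genes with a mean of at least 1 TPM, as log2(TPM + 1), in untreated library 1 (blue circles) and library 2 (orange diamonds). ABCC4 has rank 3, at 90.8 and 74.7 TPM, and 19 of the 22 genes shown are lower in library 2.

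Thiopurines enter the cell by nucleoside and nucleobase transporters, are activated by HPRT1 and later enzymes, and are inactivated by TPMT and other enzymes. Of 33 genes of this path, 26 were expressed. SLC43A3, a purine nucleobase importer, was at 322 and 253 TPM and SLC29A1, the equilibrative nucleoside transporter, at 167 and 140.1 TPM. Of the concentrative transporters, SLC28A1 had no counts and SLC28A2 had 1. All 11 genes grouped under activation were expressed, a broad group that also holds the GMP reductases GMPR and GMPR2. HPRT1 was at 71.1 and 67.4 TPM, IMPDH2 at 222 and 222 TPM and GMPS at 92.3 and 84.2 TPM. Of inactivating enzymes, TPMT was at 24.4 and 21.5 TPM and ITPA at 96.7 and 97.7 TPM. Of the purine oxidising enzymes of liver, AOX1 had no counts and XDH had 1.

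Cyclic nucleotides, another substrate of ABCC4, are made by cyclases and broken down by phosphodiesterases. The highest adenylate cyclase was ADCY7 at 56.4 and 37.6 TPM, followed by ADCY3 at 16.5 and 15.6 TPM. PDE4A was the highest phosphodiesterase at 36.9 and 26.9 TPM. PDE5A, which breaks down cyclic GMP, was at 0.37 and 0.58 TPM, and PDE3A, a phosphodiesterase of platelets, was at 1.67 and 1.00 TPM. Of protein kinase A, the regulatory subunit PRKAR1A was at 106 and 100.0 TPM and the catalytic subunit PRKACB at 38.3 and 36.4 TPM, overlapping PRKACA at 36.0 and 36.5 TPM. VASP, a kinase substrate in platelets, was at 292 and 293 TPM.

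Of the 86 cytokine receptors, 45 were expressed and 2 reached 100 TPM. EPOR, for erythropoietin, was at 9.34 and 11.3 TPM, CSF2RB, the shared beta chain of the IL3 receptor family, at 10.1 and 10.2 TPM, and IL3RA at 0.07 and 0.06 TPM. The highest was LEPR, the leptin receptor, at 169 and 145 TPM, followed by IL2RG, the common gamma chain, at 121 and 133 TPM. The tumour necrosis factor receptor TNFRSF1A was at 54.0 and 61.2 TPM, and the interferon receptor chains IFNAR1 at 54.7 and 51.5 TPM and IFNGR1 at 45.8 and 45.7 TPM. TNFRSF8, also known as CD30, was at 53.2 and 29.8 TPM, a wider spread than that of its neighbours.

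Of 58 receptor tyrosine kinases, 22 were expressed and none reached 100 TPM. TIE1 was the highest, then EPHB4, an ephrin receptor, at 50.1 and 56.7 TPM, without overlap. TYRO3 (22.9 ± 4.07 TPM) and KIT came below. KDR, the VEGF receptor, was at 10.2 and 10.9 TPM, and EGFR and FLT3 had no counts. Among 213 G protein-coupled receptors, 45 were expressed and 56 had no counts. Besides PTGER3 and the thrombin receptors, GPR108 was at 37.8 and 40.4 TPM, ADORA2B, an adenosine receptor, at 29.8 and 25.2 TPM, and CCR4, a chemokine receptor of T cells, at 18.8 and 16.2 TPM. CXCR4, the receptor that holds blood cells in marrow, was at 0.28 and 0.44 TPM.

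Other transporters, channels and surface antigens were taken by symbol. Of 375 SLC genes 184 were expressed and 17 reached 100 TPM. The highest were the ADP/ATP carrier SLC25A6 at 782 and 907 TPM, the phosphate carrier SLC25A3 at 525 and 553 TPM and the ADP/ATP carrier SLC25A5 at 461 and 487 TPM. SLC25A6 lies in the pseudoautosomal region and its entry on Y holds the same value, so the value printed is 1 of the 2 entries. Together the 2 entries summed to 1564 and 1814 TPM. Outside the mitochondrion, the amino acid carrier SLC1A5 was at 369 and 352 TPM, SLC3A2 at 190.1 and 225 TPM, SLC38A5 at 205 and 188 TPM and the lactate carrier SLC16A1 at 173 and 136 TPM. SLC25A39, a mitochondrial carrier, had a mean of 292 TPM, and SLC43A3 and SLC25A37, described above, complete the 10 highest.

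Of 198 channel genes 42 were expressed. CLIC1, a chloride channel protein with a soluble form, was at 654 and 671 TPM, KCNH2, the hERG potassium channel, at 132 and 110.1 TPM, and KCNN4, the Gardos channel of red cells, at 100.3 and 96.5 TPM. PIEZO1, the mechanosensitive channel, was at 93.5 and 63.5 TPM, and CLIC2, KCNK6, CLIC4, KCNK5 and KCNK1 lay between 26.4 and 61.1 TPM in mean. Of 77 genes with CD symbols 33 were expressed. By single entries, CD24, a small mucin-like antigen, was the highest at 732 and 564 TPM, and CD63 and CD33 followed. CD44, the hyaluronan receptor, was at 218 and 206 TPM, and CD99, CD53, CD68, CD81, CD164 and CD82 had means from 132 to 182 TPM. CD99 was again counted as 1 of 2 pseudoautosomal entries. Both CD99 entries together summed to 373 and 356 TPM, above CD63 and CD33 in each library.

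BCR-ABL1 is known to activate STAT5. Of the fusion partners, BCR was at 56.2 and 42.5 TPM and ABL1 at 78.6 and 58.1 TPM, and gene-level values do not separate fusion from normal transcripts. STAT5A, the transcription factor, was at 167 and 142 TPM, above STAT5B at 79.4 and 74.0 TPM. Among STAT5 targets, SOCS2 was at 182 and 177 TPM, PIM1 at 155 and 170.0 TPM, BCL2L1 at 76.5 and 74.1 TPM and CISH at 25.4 and 27.0 TPM. The whole list of 17 also holds BCR, ABL1 and signalling genes such as CRKL and GAB2. Of these 17 genes 16 were expressed, beside 54.7% of all protein-coding genes, and the count is not one of STAT5 targets alone. Of 23 signalling kinases of the protein kinase C, SRC, JAK, TEC and SYK families, BTK, a TEC family kinase, was the highest at 167 and 151 TPM. PRKCB, one of several protein kinase C isoforms that phorbol esters activate, came next at 143 and 146 TPM. LYN was at 95.1 and 93.1 TPM, JAK1 at 73.3 and 59.1 TPM, JAK2 at 4.28 and 3.27 TPM, and LCK and FGR had no counts.

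Genes of DNA replication and mitosis were expressed at high levels. All 17 replication genes and 15 of 16 mitosis genes were expressed, with medians of 106 and 74.2 TPM. TYMS, thymidylate synthase, was at 325 and 299 TPM, MCM3, of the replicative helicase, at 289 and 251 TPM, and CCNB1, the mitotic cyclin, at 235 and 225 TPM. UBE2C, the ubiquitin-conjugating enzyme of the anaphase-promoting complex, was at 0.31 and 0.52 TPM, from 6 and 12 counts. Of the cyclin-dependent kinase inhibitor genes, CDKN2A was at 599.9 and 691 TPM, rank 192, and CDKN1A, the p53 target p21, was at 3.72 and 3.94 TPM. CDK4, a cyclin-dependent kinase, was at 237 and 237 TPM, and CCND3 led the D cyclins at 167 and 153 TPM.

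Of 24 glycolytic genes 21 were expressed. After GAPDH, ENO1 was at 2403 and 2144 TPM and LDHB at 1599 and 1582 TPM, above LDHA at 864 and 797 TPM. The muscle mutase PGAM2 had no counts. Of MHC genes, B2M was at 1162 and 1176 TPM, and HLA-B at 8.46 and 13.3 TPM. HLA genes vary in sequence between people and read alignment can depend on that. Class II was low: HLA-DRA was at 2.50 and 1.72 TPM, CD74 at 0.48 and 0.82 TPM, and HLA-DQA1 and HLA-DQB1 had no counts.

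The 2 libraries were close for most genes. Of the 12897 expressed genes, 90.8% had values within 1.5-fold and 97.8% within 2-fold. The share within 1.5-fold was higher at higher levels, from 82.0% of the 5079 genes between 1 and 10 TPM to 96.1% between 10 and 100 TPM and 98.7% at 100 TPM or more. Across expressed genes, which are not independent replicates, the correlation of log2(TPM + 1) was r = 0.985.

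Of 5560 genes with a mean of at least 20 TPM, 5 were more than 2-fold higher in library 2 and 6 more than 2-fold higher in library 1. Of those higher in library 2, CHAC1, a glutathione-degrading enzyme of the amino acid stress response, was at 9.77 and 64.6 TPM and DDIT4, an inhibitor of mTORC1, at 51.2 and 252 TPM. HBE1 and the small nucleolar RNA SNORD3A were the others with more than 3 counts. HBE1 shares 65.6% of its windows with AC104389.4, so its own level is uncertain. Of those higher in library 1, the heat shock chaperone HSPA1A was at 243 and 68.8 TPM, HSPA1B at 119.8 and 46.0 TPM, and the HSP90 cochaperone CHORDC1 at 100.0 and 44.2 TPM. HSPA1A shares 67.3% of its windows with HSPA1B, so their split is uncertain. MPP6 was at 30.4 and 13.9 TPM and ITPRIPL1 at 33.3 and 16.1 TPM. The remaining 2 entries, MIR1282 and AC242498.1, rested on 3 and 5.6 counts. Values of these genes in untreated cells are thus known only to within the spread of these 2 libraries.

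**Figure D5:**
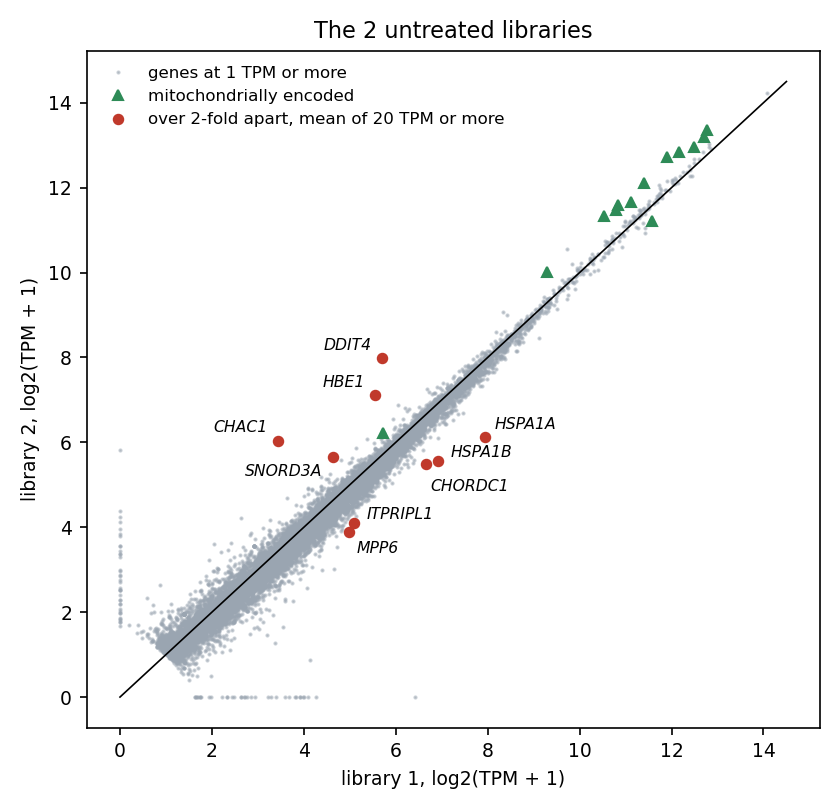
Level of each expressed gene in untreated library 2 (vertical) against library 1 (horizontal), both as log2(TPM + 1), with the line of equal levels. Green triangles are the 13 mitochondrially encoded protein-coding genes, of which 12 lie above the line, and red points are the 9 genes that differ by more than 2-fold at a mean of at least 20 TPM and have 50 or more counts in each library.

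Promoter sequences were compared with level, as letters only. The window was 300 bases, from 250 before to 50 after the start in RefSeq (GRCh38.p14), and 10997 protein-coding genes with 1 promoter there matched. The motifs were AGATAA, the core of GATA sites; GGAAGT, the core of many ETS sites; TATAAA, the TATA box; CCAAT, known from NFY sites; and GGGCGG, which SP factors bind. Each was searched on both strands, and neighbouring matches of different motifs may share end bases. Among all 35116 promoters they occurred in 10.3%, 22.8%, 11.5%, 34.6% and 45.0%.

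The motifs differed in how their share went with level. GGGCGG was in 30.5% of the 2553 promoters of genes listed at 0 TPM, in 75.4% of the 3489 at 10 to 100 TPM, and in 70.5% of the 776 at 100 TPM or more. GGAAGT was in 18.5% at 0 TPM and in 35.7% at 100 TPM or more. TATAAA was in 22.2% at 0 TPM, in 3.7% at 10 to 100 TPM and in 7.7% at 100 TPM or more. AGATAA was in 14.7% at 0 TPM and in 3.7% at 100 TPM or more. CCAAT was in 36.3% and 43.9% of the same bands. A match is a description of letters and says nothing of binding. Median GC content was 53.3% at 0 TPM and 66.0% at 10 to 100 TPM, so the letters of a motif and the base composition of the window vary together.

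The promoters of 5 genes show the range among genes described above. They are printed 5′ to 3′ on the gene's strand from 250 bases before the RefSeq start to that start, or to the first GENCODE 29 exon base where it comes sooner, with the searched motifs of either strand in capitals, and are credited to RefSeq:
ITGA2B: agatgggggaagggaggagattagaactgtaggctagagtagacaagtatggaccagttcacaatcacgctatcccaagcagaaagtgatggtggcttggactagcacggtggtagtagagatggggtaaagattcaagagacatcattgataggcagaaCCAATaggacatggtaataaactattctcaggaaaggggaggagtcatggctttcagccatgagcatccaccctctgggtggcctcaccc
GP6: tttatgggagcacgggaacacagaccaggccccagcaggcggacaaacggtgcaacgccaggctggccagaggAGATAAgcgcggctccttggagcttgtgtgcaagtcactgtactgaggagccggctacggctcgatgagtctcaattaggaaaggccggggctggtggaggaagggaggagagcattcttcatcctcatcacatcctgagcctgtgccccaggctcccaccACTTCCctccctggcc
GP9: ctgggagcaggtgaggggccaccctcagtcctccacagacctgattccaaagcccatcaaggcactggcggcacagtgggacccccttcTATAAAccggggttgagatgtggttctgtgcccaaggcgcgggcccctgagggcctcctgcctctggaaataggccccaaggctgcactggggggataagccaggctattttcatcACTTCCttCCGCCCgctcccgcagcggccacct
PPBP: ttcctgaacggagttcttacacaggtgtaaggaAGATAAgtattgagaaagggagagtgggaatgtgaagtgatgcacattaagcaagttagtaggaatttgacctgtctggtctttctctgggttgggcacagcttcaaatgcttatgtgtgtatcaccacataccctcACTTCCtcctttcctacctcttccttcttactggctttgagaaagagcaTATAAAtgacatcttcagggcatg
ABCC4: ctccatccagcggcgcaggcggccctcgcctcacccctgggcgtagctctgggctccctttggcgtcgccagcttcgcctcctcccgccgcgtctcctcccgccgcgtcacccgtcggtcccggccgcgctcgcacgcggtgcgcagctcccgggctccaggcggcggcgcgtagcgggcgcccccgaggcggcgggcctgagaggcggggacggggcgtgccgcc
Their positions are chr17:44389650-44389899 (minus strand), chr19:55038265-55038514 (minus), chr3:129060529-129060766 (plus), chr4:73988198-73988440 (minus) and chr13:95301476-95301701 (minus). The printed window of ITGA2B, the highest platelet surface gene, held CCAAT and neither AGATAA nor GGAAGT. That window ends at 44389650, while the GENCODE 29 gene begins at 44389505 on the minus strand. The bases just before the GENCODE start are therefore not in it, and their motifs are not described here. GP6, at 50.7 TPM in mean, and PPBP, at 0.02 TPM, both held AGATAA and GGAAGT, and PPBP held TATAAA besides. GP9, at 0.41 TPM, held TATAAA as well as GGAAGT and also GGGCGG. The ABCC4 window, with a GC content of 80.1%, held none of the 5. The letters of these windows did not order the genes by level.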

How the data were processed

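Stranded mRNA libraries (TruSeq) were sequenced by the authors with paired-end 100 cycle reads, per the labels' protocols. Reads were aligned to hg38 with STAR 2.7 and quantified with RSEM 1.3.1, per the submitters' processing notes. Which annotation release they used is not stated in any label or header read here. The authors deposited gene TPM, scaled to the same total in each library and corrected for length, and expected counts, which are not normalized. Only the 2 untreated libraries were read, no groups were compared and no test was run. Ranks, means and SDs were computed in Python 3.11.15 with pandas 2.3.3, after the scripts were tested on simulated data. The libraries were taken by their label, but untreated cells as a subject and the 30 gene lists (1250 of 1252 symbols matched) were chosen with earlier results of these data known. Named genes were ABCC4, list members, the highest genes of each class, and genes over 2-fold apart between libraries at a mean of at least 20 TPM. Other names are said to be chosen after their values were seen. Copies on Y of pseudoautosomal genes were left out of gene lists and of selections of the highest genes. The numbered ranks among protein-coding genes, the gene totals and the shares of TPM still count them. For a symbol with several identifiers the highest mean was used. Positions and transcript sequences came from GENCODE 29, promoters from RefSeq. Depth was 44430292 and 57650835 expected counts. Alternatives covered thresholds, each library alone, and counts in place of TPM. Some genes and sequences are not reported here.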

Additional observations from a re-analysis of the deposited data

How the results depend on the processing

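Of 210 alternatives to the reported values, 6 moved a value beyond the spread or, for a count, by over 1.5 times. By expected counts in place of TPM, the 10, 100 and 1000 highest genes held 6.933%, 22.48% and 54.17%, against 8.475%, 37.35% and 70.45% of TPM. By CPM, the rank of ABCC4 among protein-coding genes was 409, against 1681 by TPM; the 2 units differ by division by gene length. With a threshold of 2 TPM, expressed members went from 1 to 0 in the B cell list and from 2 to 1 in the T and NK cell list. None of the 94 alternatives that left out a library moved. For the shares and the ABCC4 level this was fixed in advance, since they were judged against the SD. With 2 libraries, either value always lies within 1 SD of the mean, so these alternatives say nothing of robustness. No paired analysis was possible because the results come from no test and only 1 group was used. With 2 libraries the SD is itself imprecise, and genes with few counts carry large counting error.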

Other observations

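UBE2C stood apart from the other mitosis genes, and its neighbours were looked at after its value was seen. UBE2C lies at chr20:45812576-45816957 (hg38). DNTTIP1 on its left was at 17.6 and 17.7 TPM and ACOT8 on its right at 20.4 and 20.5 TPM. Between them, UBE2C was at 0.31 and 0.52 TPM, TNNC2 had no counts, and SNX21 was at 0.02 and 0.08 TPM. No 100-base window of UBE2C transcripts occurs in another gene's. The other 15 mitosis genes of the list had means from 24.3 to 230.1 TPM.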
